A study of Homo sapiens with 6 samples.

Results

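The histone genes measured here were 9 genes chosen by their symbols: 6 replication-dependent genes of the histone clusters (H2BC12, H2AC6, H2BC21, H2BC5, H1-2 and H2AC18) and 3 replacement histone genes (H2AX, H2AZ1 and H3-3B), out of 7713 genes with a probe set that names them alone. RNA came from A549, an established cell line of human lung adenocarcinoma, and was hybridised to 6 short-oligonucleotide arrays. The 3 cisplatin arrays held cells exposed to 50 µM cisplatin, a platinum drug that forms DNA adducts, for 1 hour, and the 3 control arrays cells given growth medium alone for that hour; all then spent 10 hours in medium without drug before lysis. The series text names 3 independent experiments as the source of the samples, and no genetic change separates the groups. Of the 9 genes, 7 had a probe set of their own, and 2 were reached only through shared probe sets. H2AC18 shared its probe set with H2AC19, and H3-3B shared its pair with H3-3A. That gave 10 probe sets, all of them bright enough to be tested.

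Histones package DNA into nucleosomes, and the genes of the clusters are transcribed mainly in S phase, when new chromatin needs them. Most of their transcripts end in a stem-loop bound by SLBP and carry no poly(A) tail, whereas replacement histone transcripts are polyadenylated and made through the cell cycle; H2AX is known to make both kinds of transcript. Target for these arrays was primed with oligo-dT, per the labels, so tailed transcripts are the ones primed, and cluster genes such as H2BC12, H2BC5, H2BC21, H2AC6 and H1-2 are known to make some tailed RNA. H2AX is phosphorylated beside DNA breaks, H2AZ1 marks promoters, and H3-3B encodes the H3.3 protein that is deposited outside replication.

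In the RefSeq annotation of GRCh38.p14, 4 of the 6 cluster genes lie on chromosome 6 and H2BC21 and H2AC18 on chromosome 1, while H2AX is on chromosome 11, H2AZ1 on chromosome 4 and H3-3B on chromosome 17. The annotated spans of the 3 H2B members were long for histone genes: 13229 bases for H2BC5, 8566 for H2BC12 and 2224 for H2BC21. H2AC6 spans 519 bases, H2AC18 533 and H1-2 731. Of the 37 cluster histone genes with a probe set of their own on the array, 4 span more than 1000 bases, and these 3 members are among them. The start of H2AC6 lies 246 bases from that of H2BC4, transcribed the other way, and the start of H2BC21 lies 236 bases from that of H2AC20.

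The 150 bases before the annotated start are printed for 5 genes, the 4 cluster members with the lowest log2 folds after cisplatin and H2AZ1 as a replacement gene, to show what their promoters have in common. Sequences are from the RefSeq promoter table of GRCh38.p14, all 9 genes had an entry, and the windows shown overlap no annotated gene. By position and strand they are chr6:27146859-27147008 (minus) for H2BC12, chr1:149886683-149886832 (minus) for H2BC21, chr6:26157971-26158120 (plus) for H2BC5, chr6:26124022-26124171 (plus) for H2AC6 and chr4:99950276-99950425 (minus) for H2AZ1. They read 5′ to 3′ along the gene, and capitals mark 3 motifs on either strand: the CCAAT box, the TATAA box and the octamer of H2B promoters, ATTTGCAT.
H2BC12: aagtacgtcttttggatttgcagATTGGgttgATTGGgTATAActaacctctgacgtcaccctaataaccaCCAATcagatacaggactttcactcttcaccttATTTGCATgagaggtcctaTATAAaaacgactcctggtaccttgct
H2BC21: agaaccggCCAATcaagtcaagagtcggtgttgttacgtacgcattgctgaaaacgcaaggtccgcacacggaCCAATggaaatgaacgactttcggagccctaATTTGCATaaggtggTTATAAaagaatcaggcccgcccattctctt
H2BC5: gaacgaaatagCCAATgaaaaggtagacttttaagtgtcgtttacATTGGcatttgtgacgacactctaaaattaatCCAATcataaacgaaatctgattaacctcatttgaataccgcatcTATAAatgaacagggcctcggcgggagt
H2AC6: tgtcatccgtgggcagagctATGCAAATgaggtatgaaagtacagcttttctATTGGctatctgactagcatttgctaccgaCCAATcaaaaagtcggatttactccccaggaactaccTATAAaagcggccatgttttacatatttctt
H2AZ1: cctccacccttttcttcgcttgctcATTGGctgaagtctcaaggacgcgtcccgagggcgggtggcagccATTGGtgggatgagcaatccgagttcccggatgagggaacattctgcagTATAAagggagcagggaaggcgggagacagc

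The searched letters fell at like places. A TATAA match ended 23 to 27 bases before the start in all 5 windows, and in H2BC21 a match on each strand overlaps the other. The octamer stood 46 to 39 bases before the start of both H2BC12 and H2BC21. In H2AC6 it lay on the opposite strand, 130 to 123 bases before the start, and H2BC5 and H2AZ1 had no match in this window. CCAAT occurred in the windows of all 9 genes, while that of H1-2, a cluster member, held neither TATAA nor the octamer. Over one promoter of each of 27305 genes, the same window held CCAAT in 24.4%, TATAA in 12.8% and the octamer in 0.985%; over 65 cluster histone genes the shares were 83.1%, 75.4% and 30.8%. H3-3B, a replacement gene, also had the octamer, so the letters do not divide the members by class. A match describes the sequence and is not a measured binding site.

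The comparison of treated with control cells asked which histone transcripts differed 10 hours after the exposure. All 5 cluster genes with their own probe set were lower on average after cisplatin, most of all H2AC6 and H2BC12, and the groups of H2AZ1 and of H2AX overlapped. With limma, 0 of the 10 probe sets passed an adjusted p of 0.05, against 0.290% of all 6559 tested probe sets (19) in either direction and 0.0762% (5) lower, so no histone gene is called changed here. At an unadjusted p under 0.05 there were 2, both lower, against 5.03% of all tested probe sets in either direction and 1.63% in that one. All 3 cisplatin arrays lay below all 3 control arrays for 3 of the 10, against 3.57% of all, and above them for 1, against 7.42%. Because the genes were chosen with results of these data known, these counts describe them and test nothing. In cell cultures measured in bulk, fewer cells expressing a gene and less RNA per cell cannot be told apart.

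**Figure D1:**
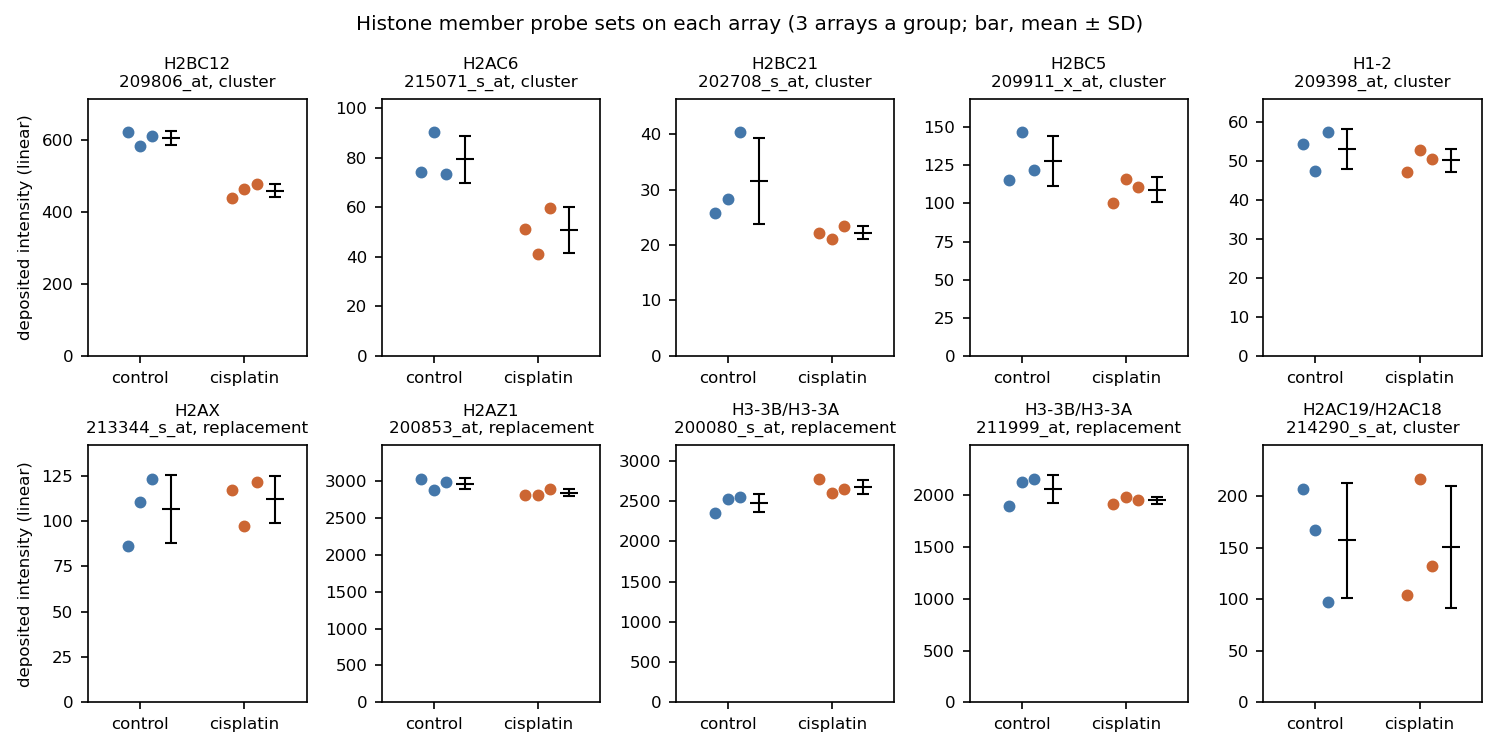
Deposited intensity (linear, from 0) of the 10 histone probe sets on each of the 3 control arrays (blue) and 3 cisplatin arrays (orange), with the group mean ± SD beside the points. H2BC12, H2AC6 and H2BC21 have all cisplatin points below all control points, while the groups of H2BC5, H1-2, H2AX, H2AZ1 and H2AC18/H2AC19 overlap.

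H2BC12, which encodes an H2B of the large cluster, read 620.0, 582 and 609 on control arrays 1 to 3. On cisplatin arrays 1 to 3 it read 438, 463 and 476. The groups did not overlap, and the gap between them was wider than the range within either. The means were 604 ± 19.7 and 459 ± 19.2 (SD, n = 3 each), 24.0% lower by the fall in mean intensity. The log2 fold in limma was -0.39 (SE 0.10, 95% interval -0.60 to -0.17, unadjusted p 0.00273, adjusted p 0.324). It was the smallest unadjusted p among the 10 probe sets.

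H2AC6, an H2A gene of the same cluster, read 74.0, 90.1 and 73.5 on the controls. After cisplatin it read 51.3, 41.2 and 59.7. The groups again did not overlap, with control 2 standing highest and cisplatin 2 lowest. The means were 79.2 ± 9.45 and 50.7 ± 9.27 (SD, n = 3 each), and the log2 fold was -0.55 (SE 0.17, 95% interval -0.92 to -0.17, unadjusted p 0.00886, adjusted p 0.585 in limma). The fall in mean intensity was 35.9%, the largest among the members.

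H2BC21, an H2B gene of the smaller cluster on chromosome 1, read 25.8, 28.3 and 40.3 on the controls and 22.2, 21.1 and 23.4 after cisplatin. The groups did not overlap, and control 3 stood well above the other 5 arrays. Its log2 fold was -0.33 (SE 0.19, 95% interval -0.76 to 0.10, adjusted p 0.999 in limma), and without control 3 it was -0.19. These intensities are near the dim limit of testing, which corresponds to an intensity of 23.8.

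H2BC5 read 115, 147 and 122 on the controls and 100.2, 116 and 111 after cisplatin. Here cisplatin 2 stood just above control 1, so the groups overlapped. The probe set of H2BC5, though annotated to it alone, is of a kind that can match other sequences. The log2 fold was -0.20 (SE 0.14, 95% interval -0.52 to 0.11, adjusted p 0.999 in limma), and it was -0.11 without control 2. H1-2, which encodes a linker histone, read 54.4, 47.3 and 57.3 against 47.2, 52.8 and 50.5. Its groups interleaved, and the log2 fold of -0.06 had a 95% interval from -0.40 to 0.27, which leaves its direction unresolved with 3 arrays a group.

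The probe set shared by H2AC18 and H2AC19, a pair of near-identical H2A genes on chromosome 1, read 207, 167 and 97.1 on the controls and 104, 217 and 132 after cisplatin. The arrays of each group spread over more than the distance between the groups. Its log2 fold was -0.06 (95% interval -0.72 to 0.60), the widest interval among the members, and the sign changed under 5 of 17 other settings.

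Among replacement histones, H2AZ1 read 3026, 2877 and 2977 on the controls and 2814, 2808 and 2893 after cisplatin. The groups touched, since cisplatin 3 lay above control 2. The log2 fold was -0.06 (SE 0.06, 95% interval -0.19 to 0.07, adjusted p 0.999 in limma), the narrowest interval among the members. H2AX read 86.3, 110.3 and 123 against 117, 97.3 and 122. Its groups interleaved, with a log2 fold of 0.07 (95% interval -0.29 to 0.43, adjusted p 0.999), and its sign turned under 3 of 17 other settings.

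H3.3 transcripts were read by a pair of probe sets, each annotated to both H3-3A and H3-3B, so the values cannot be given to either gene. The one annotated also to H3P6 read 2346, 2524 and 2554 on the controls and 2773, 2603 and 2650.0 after cisplatin, all cisplatin values above all controls (log2 fold 0.11, 95% interval -0.03 to 0.26, adjusted p 0.999 in limma). The one annotated also to MIR4738 read 1897, 2119.8 and 2154 against 1913, 1982 and 1946, overlapping and in the opposite direction (log2 fold -0.08, 95% interval -0.24 to 0.09). The pair thus disagreed in sign, and neither interval excluded 0.

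Set side by side, the 5 cluster genes had log2 folds from -0.55 to -0.06 with a median of -0.33, and the 2 replacement genes with their own probe sets had a median of 0.01. Over all tested probe sets the median was 0.04, and 39.5% had a log2 fold below 0. The mean log2 intensity of the 5 cluster genes was 6.80, 6.88 and 6.91 on control arrays 1 to 3 and 6.51, 6.53 and 6.63 on the cisplatin arrays. That of the 2 replacement genes was 9.09, 9.21 and 9.31 against 9.24, 9.12 and 9.28. The mean of these 5 cluster genes separated the groups and that of the 2 replacement genes did not. Taken alone, H2BC5 and H1-2 overlapped, and the shared probe sets of H2AC18 and of the H3.3 pair are not in these means. Outside the members, the replacement gene H1-10 was at -0.58 and the cluster gene H4C13 at 0.27. The means therefore do not stand for either class as a whole. No p is given for either mean, since the genes were chosen with results known. Among themselves over the 6 arrays, log2 values of H2BC12 correlated with those of H2AC6 at r = 0.84 and of H2BC21 at 0.75, whereas H1-2 stood at 0.03 with H2AC6 and -0.02 with H2BC5; these r describe 6 points that share arrays and fall into 2 groups. Counting H2AX with the cluster genes gave a cluster median of -0.27.

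**Figure D2:**
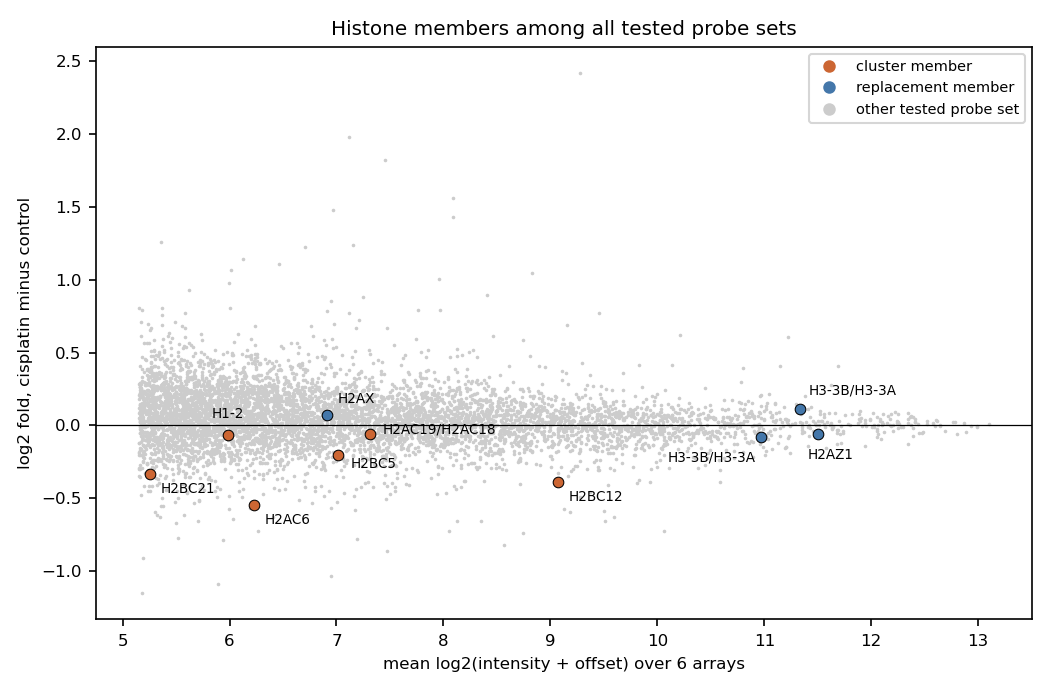
Log2 fold (cisplatin minus control) against mean log2 intensity over the 6 arrays for all 6559 tested probe sets (grey), with cluster members in orange and replacement members in blue. H2BC12 and H2AC6, at -0.39 and -0.55, lie toward the lower edge of the grey points at their intensity, and H2AZ1 and the H3.3 pair lie near 0.

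The array held many more histone probe sets than the members. In all, 65 probe sets were annotated to histone genes, 46 of them to 1 symbol, and 39 were bright enough to be tested. The 26 that were too dim read at most 36.4 on any array and included 8 each of the H3C and H4C genes, 5 of H2BC genes, 4 of H2AC genes and 1 of an H1 gene. Among the 29 tested probe sets outside the members, 17 were higher and 12 lower, with a median log2 fold of 0.04. Over all tested probe sets 39.5% had a log2 fold below 0. Of the 29, 0 passed in limma, against 0.290% of all. At an unadjusted p under 0.05 there were 3, all lower, against 5.03% of all tested probe sets in either direction and 1.63% lower. For 4 of the 29 all cisplatin arrays lay below all controls, against 3.57% of all tested probe sets, and for 1, that of H4C13, all lay above, against 7.42%. The 22 of them with 1 symbol had a median of 0.06, with 15 higher and 7 lower. A difference between them and the cluster members was not tested.

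**Figure D3:**
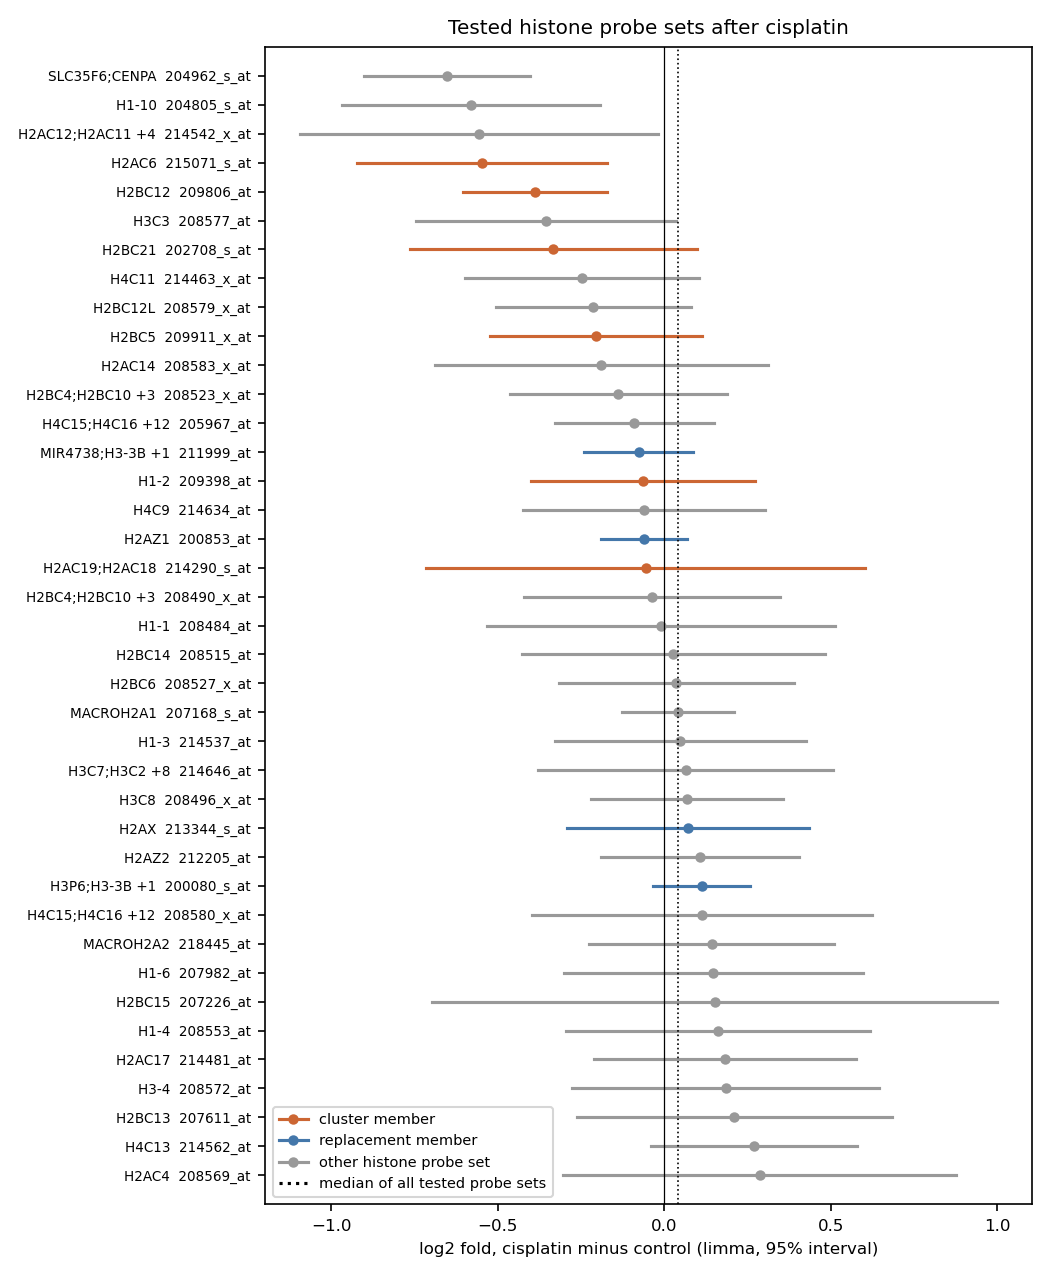
Log2 fold with its 95% interval for the 39 tested histone probe sets, sorted by value, with cluster members in orange, replacement members in blue and other histone probe sets in grey; the dotted line is the median of all tested probe sets, 0.04. The values run from -0.65 for the SLC35F6/CENPA probe set to 0.29 for H2AC4, and 5 of the intervals lie wholly on one side of 0.

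Of the other histone genes with a probe set of their own, H1-10 had the lowest unadjusted p. It encodes a linker histone whose making is not tied to S phase. It read 199, 178 and 126 on the controls and 97.8, 114 and 108 after cisplatin, with no overlap (log2 fold -0.58, SE 0.17, unadjusted p 0.00785, adjusted p 0.572 in limma). H3C3, an H3 cluster gene, went from 42.5 ± 4.43 to 30.8 ± 5.51 (SD, n = 3 each), also without overlap (log2 fold -0.35, adjusted p 0.990). H2BC12L, a close relative of H2BC12 named after its values were seen, read 154, 146 and 127 against 124, 118 and 121 (log2 fold -0.21, adjusted p 0.999). All its cisplatin values were below all controls, and its probe set is of a kind that can match other sequences.

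The brightest of the others by mean log2 intensity had values that overlapped between the groups, and the first 3 were replacement variants. MACROH2A1, a large H2A variant of silent chromatin, went from 1462 ± 68.7 to 1503 ± 43.9 (log2 fold 0.04). H2AZ2, the sister gene of H2AZ1, went from 449 ± 63.8 to 483 ± 46.8 (log2 fold 0.11). MACROH2A2 went from 219.5 ± 17.7 to 247 ± 56.0 (log2 fold 0.14), and H3C8, an H3 cluster gene, from 176 ± 9.38 to 185 ± 18.6 (log2 fold 0.07). H3-4, an H3 gene known from testis that ranks above H3C8 by mean intensity, read 167, 166 and 163 against 158, 278 and 154, so that 1 array, cisplatin 2, held its difference (log2 fold 0.18; SD and means above are of 3 arrays each).

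A probe set annotated to both SLC35F6 and CENPA, picked out after its values were seen, came closest to the threshold. CENPA encodes the H3 variant of centromeres, which is made late in the cell cycle, and SLC35F6 a solute carrier. The probe set read 397, 408 and 389 on the controls and 269.8, 235 and 243 after cisplatin (log2 fold -0.65, SE 0.11, adjusted p 0.0589 in limma). A probe set annotated to 14 H4 genes, the brightest for cluster genes, had a log2 fold of -0.09 and overlapping groups. Another tested probe set of the same 14 genes had 0.11, also with overlap, so these H4 readings disagreed in sign. A probe set annotated to 6 H2A genes had -0.56 with an adjusted p of 0.937 in limma. It read between 15.1 and 46.1, near the dim limit of testing.

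Genes that act on histone RNA and protein were read from lists. Of 26 genes of histone transcription and 3′ end processing, 13 had a tested probe set, 0 passed in limma in either direction and 0 had an unadjusted p under 0.05, with a median log2 fold of 0.01. SLBP, whose protein binds the histone stem-loop, was among them with a log2 fold of -0.10 (428.5 ± 41.7 to 399 ± 44.5). The lowest unadjusted p values were those of SRRT, a cap-associated factor (log2 fold 0.24), and PABPN1, a poly(A)-binding protein (0.16). Of 36 histone chaperone and exchange genes, 25 were tested, 0 passed in either direction and 0 had an unadjusted p under 0.05 (median log2 fold -0.01). RUVBL2, a helicase of remodelling complexes, had -0.20 and CHAF1B, a subunit of the replication-coupled chaperone CAF-1, 0.20. Over all tested probe sets, 0.290% passed and 5.03% had an unadjusted p under 0.05.

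Genes that act on H2AX were measured by 17 tested probe sets of 20 genes, H2AX included. PPM1D, whose phosphatase removes the damage mark from H2AX, was the 1 member to pass, with 132, 155 and 155 on the controls and 500.3, 391 and 491 after cisplatin (log2 fold 1.56, SE 0.14, adjusted p 0.00122 in limma). The other 16 did not pass in either direction, and over all tested probe sets 0.290% passed. The list had 9 log2 folds above 0 and 8 below, with a median of 0.04. Among 20 tested genes of S phase, on a list of 24, 0 passed in limma, while 6 had an unadjusted p under 0.05, 3 of them higher and 3 lower, against 5.03% of all tested probe sets in either direction and 1.63% lower. PCNA, the replication clamp, was higher by 0.39 on log2 (adjusted p 0.272) and TYMS, which makes thymidylate, 0.20 (adjusted p 0.535). The third higher gene was LIG1 (0.29, adjusted p 0.936). The 3 lower genes were MCM3 (-0.31, adjusted p 0.608), MCM5 (-0.33, adjusted p 0.627) and MCM6 (-0.28, adjusted p 0.660). The median of the S phase list was 0.07.

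Over the 6 arrays, the 5 genes whose log2 intensity followed the mean of the cluster members most closely were DOCK1 (Pearson r 0.995), KCNMA1 (0.987), EXT1 (0.981), CCNB2 (0.978) and LTBP1 (0.978). DOCK1 encodes an activator of RAC, KCNMA1 a potassium channel, EXT1 a heparan sulfate polymerase, CCNB2 a mitotic cyclin and LTBP1 a binder of latent TGF-beta. These r describe 6 points that fall into 2 groups and share arrays. Of 5787 genes compared, 37 had an r of 0.9 or more and 69 an r of -0.9 or less. DOCK1 was at -0.57 on the log2 scale (adjusted p 0.312), and KCNMA1 and CCNB2 passed in limma with -1.04 (adjusted p 0.0276) and -0.63 (0.0324).

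Measures of the arrays overlapped between the groups in part. The median intensity lay between 57.2 and 67.2, highest on cisplatin 2, and the ACTB 3′/5′ ratio, a measure of RNA integrity, ran from 2.20 to 2.98 on the controls and from 2.67 to 3.67 after cisplatin. Its part in the histone values was not tested beyond a fit with the ratio as a covariate, where the log2 folds were -0.36 for H2BC12 and -0.61 for H2AC6 (adjusted p 0.132 and 0.167). Without control 1 and cisplatin 2 the cluster median was -0.38, and 2 members still had an unadjusted p under 0.05. KRT18, VIM, AKR1C1 and ALDH1A1, typical of A549 cells, read between 3368 and 6165 on every array, and KRT7 and KRT8 between 1523 and 2638. Other lung epithelial markers read lower: KRT19 120 to 152, SFTPC 40.9 to 61.4, and EPCAM and CDH1 between 26.1 and 46.1. Of 11 markers of blood, endothelial and stromal cells, 8 could be read, 4 of them tested and 0 passing; their summed intensity was 247 to 288 on the controls and 236 to 313 after cisplatin, and LUM and COL3A1 were at or near 0. CD3E, a T cell gene that these cultures should lack, read 27.2 to 55.1, the range in which H1-2, H2BC21 and H2AC6 after cisplatin also lay in part. Other markers of that list read higher, PECAM1 53.8 to 85.6 and COL1A1 85.9 to 109.3. The control values of H2AC6, and in part the values of H2AX and H2BC5, lay in those ranges.

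**Figure D4:**
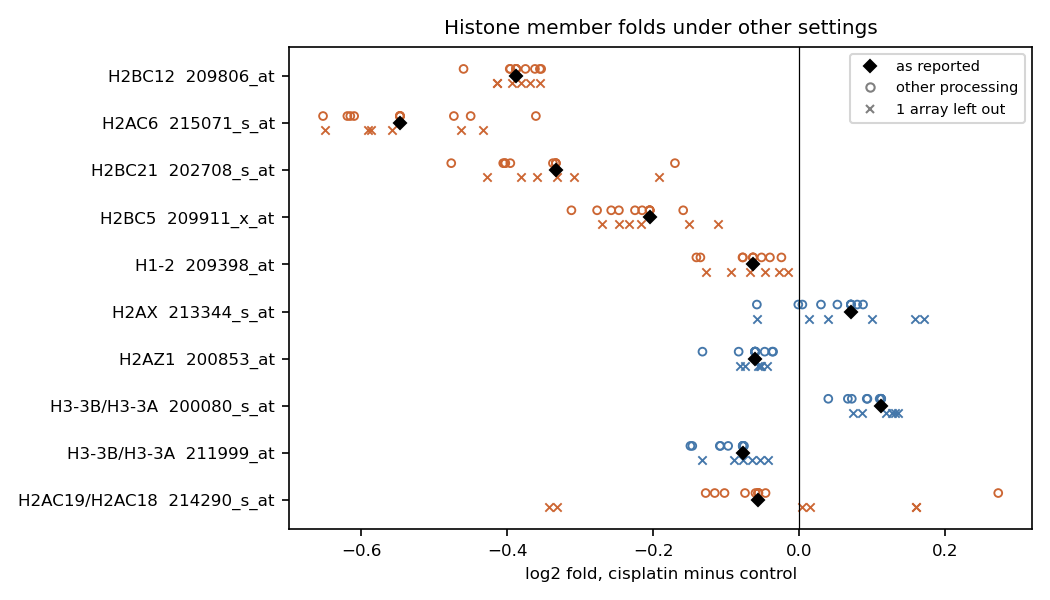
Log2 fold of the 10 histone probe sets as reported (black diamonds), under other processing settings (circles) and with 1 array left out (crosses), with cluster members in orange and replacement members in blue. H2BC12 stays between -0.46 and -0.35 and H2AC6 between -0.65 and -0.36, while the H2AC18/H2AC19 probe set runs from -0.34 to 0.27 across 0.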

How the data were processed

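The authors deposited probe set intensities on a linear scale, judged by the values. These run from -512.3 to 9153, with 723 at or below 0, so a subtraction of some kind had been made. How probes were summarised and arrays scaled is not given in the sources used here. Arrays have no read depth, and their number limits precision; 0 pairs of arrays were identical. Values at or below 0 were set to 0, an offset of 11.8 (the 10th percentile of positive values) was added and log2 taken. Arrays were used as deposited, their 75th percentiles spanning 0.15 on log2, under a limit of 0.3. Without 47 control probe sets, 8746 remained, and the 6559 at or above the 25th percentile of mean log2 were tested in limma 3.58.1 (R 4.3.3; lmFit, eBayes with an intensity trend, two-sided, Benjamini-Hochberg over all tested at 0.05; 4 residual and 5.54 prior degrees of freedom). An exact test of 3 against 3 cannot go below 0.1 and was not used. The fit was also run on simulated arrays with independent errors and planted changes larger than those of the histone members. That run does not show how well changes of the members' size are found.

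Folds include the offset, and those of dim probe sets are therefore understated; means and SD are of the deposited intensity. Nothing says that cultures were separate beyond the 3 independent experiments named, so p-values measure the spread between these arrays. Symbols came from the platform table (7840 probe sets with 1 symbol, 388 with several, 518 with none); spans and promoters from RefSeq, GRCh38.p14. A gene of a list was read by its brightest tested probe set. The members, lists and alternatives were chosen with earlier results of these data known. Named were all 9 members, the 4 brightest other histone genes and the 2 with the lowest unadjusted p. In each gene list the genes past the threshold or the 2 with the lowest unadjusted p were named. The 5 genes most like the cluster mean were named too. H2BC12L, SLBP, LIG1, MCM3, MCM5, MCM6 and the shared probe sets described were added after their values were seen. Alternatives covered scaling, offset, filter, variance prior, replicate block, arrays left out, a 3′/5′ covariate, array weights, the probe set rule and the place of H2AX. Figures used matplotlib 3.10.9 under Python 3.11.15.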

Additional observations from a re-analysis of the deposited data

How the results depend on the processing

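The number of histone member probe sets past the threshold was 0 under all 17 other fits run. The 5 cluster genes kept a negative log2 fold in every fit that tested them; H2BC12 and H2AC6 had an unadjusted p under 0.05 in all 17, with adjusted p values of 0.132 to 0.9998 and 0.167 to 0.9998. The cluster median moved to -0.17 with an offset of 50, which compresses dim probe sets, and was -0.38 to -0.23 with 1 array left out. The replacement median, 0.01, lay between -0.05 and 0.06 with 1 array left out, at -0.07 with arrays centred on the median and at -0.04 with quantile normalization, so its sign is not settled. Averaging the probe sets of a gene changed neither median, as each of these genes had 1 of its own. H2AX turned to -0.00090 with arrays centred on the median and -0.058 with the 3′/5′ covariate, and lay between -0.058 (without control 1) and 0.17 with 1 array left out. H2AC18/H2AC19 turned to 0.27 with the 3′/5′ covariate, and lay between -0.34 and 0.16 with 1 array left out.

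Over all probe sets 19 passed. Median centring gave 11, dropping the intensity trend 8, the 3′/5′ covariate 47, array weights 44, and leaving out 1 array 6 to 18 (control 2 gave 6, control 3 gave 8, and cisplatin 1, 2 and 3 gave 6, 11 and 7); the cause was not tested. With the 3′/5′ covariate 24 of the 47 were lower, against 5 of 19 in the reported fit. The fit with a replicate block passed 5, with 0 histone members. No label ties equal numbers to a common experiment, and the deviations of equally numbered arrays correlated at -0.56, -0.31 and -0.12. Signal over background limits H2BC21 and H1-2, which dropped out of the test with the filter at the 50th percentile.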
